A study of Mus musculus with 10 samples.

Results

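Regulatory T cells (Tregs) of the normal mouse spleen were compared with the FoxP3-CD25- non-Tregs sorted from the same WT mice. The members are 4 of the 10 RNA-seq libraries of the series, chosen by their labels: the FoxP3+CD25+ and the FoxP3-CD25- population of WT mouse 1 and of WT mouse 2, with the libraries of a mouse paired by its number. That a number names a mouse is implied by the labels, not stated. The mice were C57BL/6, 8 to 12 weeks old on average and of both sexes, and carried a *Foxp3-ires-gfp* reporter, so that GFP stood for FoxP3 in the sort. Cells were peripheral CD4+ T cells of the spleen and received no treatment. The labels do not say whether the WT mice also carried the floxed *Satb1* allele or the *Thpok-cre* transgene of the KO mice (*Satb1* F/F:*Thpok-cre*, 6 libraries), in which Cre is driven by the gene of a CD4-lineage factor. The KO libraries entered the fit for its estimate of spread and for the comparison described near the end. Each sorted population of a mouse gave 1 library, so each WT population has 2 libraries, and the SE and FDR rest on the spread of all 4 mice of the fit.

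FoxP3 is the transcription factor that sets up and maintains Treg identity, and CD25 is the alpha chain of the high-affinity IL-2 receptor. Tregs make little IL-2 themselves and live on IL-2 from other T cells. They restrain immune responses through the inhibitory receptor CTLA-4, through TGF-beta that GARP (*Lrrc32*) holds at the surface, through adenosine made by the ectoenzymes CD39 and CD73, and through inhibitory cytokines. CD4+ cells that lack FoxP3 and CD25 are largely naive T cells, with some memory, follicular helper and NKT-like cells.

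The authors deposited read counts per gene symbol. The 4 libraries held 7953332 and 8519546 reads on genes (WT FoxP3+CD25+, mouse 1 and mouse 2) and 12410064 and 9636537 (WT FoxP3-CD25-). Levels are given as CPM, the reads of a gene scaled to libraries of equal size, after TMM scaling, in the order mouse 1, mouse 2, and are not corrected for gene length. A gene without a count in a WT library was below 3 counts, which is 0.242 to 0.377 CPM before scaling. Fold changes are log2 of FoxP3+CD25+ over FoxP3-CD25- with their standard error (SE), and FDR is the Benjamini-Hochberg adjusted p of edgeR's two-sided quasi-likelihood F-test over 13796 genes, with the mouse as a block. A gene that "rose" or "fell" was higher or lower in Tregs at an FDR below 0.05. Intervals and floors cover counting error only.

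The sort was checked first. *Foxp3* stood at 715 and 618 CPM in the FoxP3+CD25+ libraries and at 18.6 and 18.0 CPM in the FoxP3-CD25- libraries. *Il2ra*, which encodes CD25, stood at 658 and 760 CPM against 3.56 and 1.55 CPM. Both genes chose the cells, so these values (log2 fold changes of 5.19 and 8.05) are a description and not a test. *Satb1*, the genome organizer deleted in the KO mice, was present in every WT library, at 379 and 478 CPM in Tregs and 818 and 881 CPM in non-Tregs. It fell in Tregs by 0.996 on the log2 scale (SE 0.08, FDR 8.16e-06).

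All 12 CD4 T cell markers were detected, and their summed level was 5591 to 5745 CPM in Tregs and 5912 to 6912 CPM in non-Tregs. Of 16 B cell markers, 8 had enough counts to be tested and 4 rose, and the summed level was 463 and 679 CPM in Tregs and at most 349.9 CPM in non-Tregs. *Cd74*, the invariant chain of MHC class II, stood at 57.1 and 30.6 CPM in Tregs and 2.07 and 2.06 CPM in non-Tregs, and *Cd79b*, a B cell receptor chain, at 19.1 and 14.6 CPM against 1.41 and 0.826 CPM. *Ighd* rose by 1.65 (42 and 47 against 24 and 14 reads, FDR 0.00259), and *Igkc* (1.11, FDR 0.125) and *H2-Ab1* (0.94, FDR 0.358) did not pass. Nor did *Cd79a* (9 and 25 against 23 and 8 reads, 0.54, FDR 0.553). *Cd22* had a negative fold and did not pass either (13.9 and 8.39 against 13.7 and 11.8 CPM, -0.21, FDR 0.538). *Ms4a1* had 0 and 0 reads in the Treg libraries, *H2-Aa* 3 and 4, and *H2-Ab1* 8 and 3. *Ighm* had the highest level of that list, at 578 and 396 CPM in Tregs, and rose by 0.61 (FDR 0.00106). The part of B cells in these values was not tested. NK cell markers went the other way, with a summed level of 11.5 to 13.2 CPM in Tregs and 65.9 to 79.9 CPM in non-Tregs, nearly all of it *Prf1* and *Eomes*, while *Klra4* was at 0 in all 4 libraries and *Ncr1* had 2 reads in 1 non-Treg library. The summed monocyte and macrophage markers lay between 24.3 and 28.5 CPM in all 4 libraries, and *Cd14*, *Spi1* and *C1qa* were at 0. Of 10 neutrophil markers 6 were at 0 and *Mmp9* rose (26 and 14 against 4 and 2 reads, 3.15, FDR 0.00428). Of 8 dendritic cell markers 4 were at 0 and *Zbtb46* rose (2.26, FDR 0.00247). *Bst2*, the most abundant of them, did not pass (30.2 and 48.3 against 51.3 and 38.9 CPM, -0.22, FDR 0.516). Among the rest the summed erythroid markers did not pass 2.37 CPM.

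The Treg library of WT mouse 1 stood apart from the other 3 in its content. Of its gene counts, 1.78% lay on 54 ribosomal protein genes, against 3.06% to 3.46% in the others. It held 3498 CPM on *Gm42418* and 1881 CPM on *Rn18s-rs5*, loci that carry ribosomal RNA sequence, against 1242 to 1548 and 685 to 843 CPM. The difference between Tregs and non-Tregs also followed exon length in mouse 1 and not in mouse 2. The median log2 difference ran from -0.19 in the shortest quartile of genes (up to 2222 bases of exon) to 0.10 in the longest (from 6286 bases) in mouse 1, and from 0.02 to -0.03 in mouse 2. The libraries of mouse 1 also held 14487 and 16362 *Xist* reads and none on 4 Y-linked genes, and those of mouse 2 had 0 and 1 *Xist* reads and 4052 and 4750 on the Y-linked genes, so the mice differed in sex. The part of these features in the results was not tested. The values of each mouse are therefore given side by side below.

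**Figure D1:**
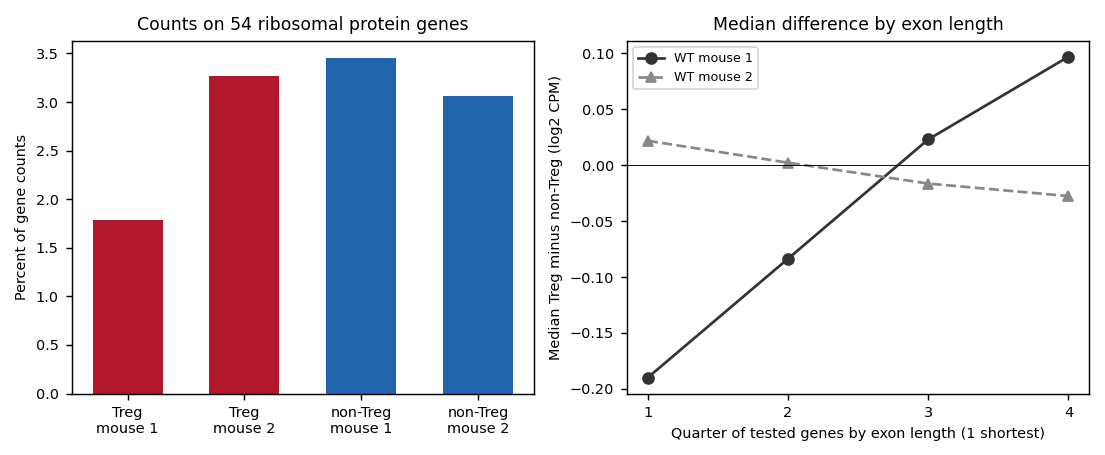
Left, the percent of gene counts on 54 ribosomal protein genes in each of the 4 WT libraries (bars, 1 library each). Right, the median difference between Tregs and non-Tregs (log2 CPM) of the tested genes in 4 quartiles of exon length, for each WT mouse; the Treg library of mouse 1 held 1.78% against 3.06% to 3.46% elsewhere, and only mouse 1 shows a median that climbs with length.

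Of the 13796 genes tested, 2634 (19.1%) were differentially expressed between WT Tregs and non-Tregs. In Tregs 1565 genes (11.3%) rose and 1069 (7.75%) fell. A fold of at least 2 was reached by 816 of the rising genes (5.91% of those tested) and by 323 of the falling genes (2.34%). The median log2 fold change was 1.05 among the genes that rose, -0.69 among those that fell and -0.02 over all genes tested. In this fit rises were thus both more numerous and larger than falls. By exon length, 6.38% of genes rose and 5.96% fell in the shortest quartile, and 16.5% and 7.77% in the longest. The part of length in the excess of rises was not tested. The excess in number did not hold in every fit with a WT library left out. With sorted populations as bulk samples, a change in the share of cells that express a gene and a change in RNA per cell cannot be told apart.

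The mice were also read singly. Over all tested genes their log2 differences had a Pearson's r of 0.68, as a description, since genes are not independent replicates. A test paired over the mice calls few genes of opposite sign, and 5 of the 2634 had one. Among these were *Xist* and *Rpl7-ps7*, a ribosomal protein pseudogene with 289 reads in 1 non-Treg library and 2 in each of the other WT libraries. The number of genes rests on the pairing: without the block for the mouse 1504 genes passed (987 higher, 517 lower), all of them among the 2634. Mouse 1 alone, with the spread taken from the KO mice, gave 4483 and 4498 genes when the non-Treg or the Treg library of mouse 2 was left out. Mouse 2 alone gave 2882 and 2890 genes when the non-Treg or the Treg library of mouse 1 was left out, and 1988 of the 2634 were among them in either case.

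**Figure D2:**
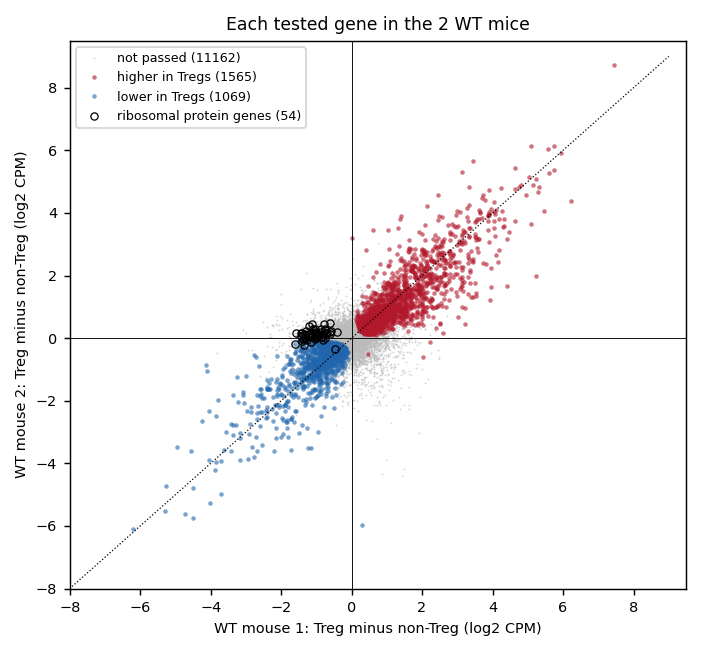
Difference between Tregs and non-Tregs (log2 CPM) of each of the 13796 tested genes in WT mouse 1 (horizontal axis) and WT mouse 2 (vertical axis), with genes that rose in red (1565), fell in blue (1069) or did not pass in grey, and equal differences on the dotted line. The 54 ribosomal protein genes (open circles) lie below 0 in mouse 1 and around 0 in mouse 2.

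The largest rises were led by *Lrrc32*. It encodes GARP, the receptor that docks latent TGF-beta, and stood at 307 and 209 CPM in Tregs. Non-Tregs held 2 *Lrrc32* reads in all, and the ratio of the pooled levels was 2790, with an exact 95% counting interval of 771 to 23000. *Itgae*, the alpha chain of the E-cadherin receptor CD103, stood at 156 and 67.2 CPM against 2.65 and 0.722 CPM (log2 fold change 6.04, SE 0.22, FDR 4.12e-08). *Fgl2*, a secreted fibrinogen-like suppressor protein, stood at 45.9 and 24.1 CPM against 0.911 and 0.619 CPM. In each of these genes the Treg libraries lay far above the non-Treg libraries, with no overlap. Their choice for large rises in both mice largely fixes this. Others among the 12 largest were the proteoglycan gene *Sdc4* (5.98), the laminin chain *Lamc1* (5.24), the kinase gene *Src* (4.47) and *Cd74* (4.41). The IL-33 receptor *Il1rl1* and the IL-1 decoy receptor *Il1r2* are described with their locus below. *Ccdc22*, which ranked high with a log2 fold change of 6.18, runs opposite to *Foxp3* and shares exon sequence with it. Its reads (50.7 and 43.5 against 0.828 and 0.413 CPM) cannot be told from those of *Foxp3*, since no strand setting is known.

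The largest falls were led by *Pdlim4*, a PDZ and LIM domain adaptor gene, with 18.0 and 32.8 CPM in non-Tregs. The Treg libraries held 2 *Pdlim4* reads in all, a ratio of 200 in favour of non-Tregs (exact 95% counting interval 55.1 to 1660). *Atp8b4*, a phospholipid flippase gene, stood at 0.896 and 0.945 CPM in Tregs and 44.2 and 54.8 CPM in non-Tregs (log2 fold change -5.73, SE 0.33, FDR 8.41e-07). *App*, the amyloid precursor gene, stood at 1.28 and 0.472 CPM against 24.6 and 27.2 CPM. These genes were close to absent from Tregs rather than reduced in them. *Lrrc75b* and *Ggt5*, the gene of a glutathione-cleaving enzyme, are neighbours on chromosome 10 (75550123 to 75560330 and 75589340 to 75617200 in GRCm38) and fell together, by 5.69 and 5.26. *Nacc2* (-3.33) and the phosphodiesterase gene *Pde5a* (-3.21) closed the 12 largest, and *Il21*, *Il1rl2*, *Dapl1*, *Vipr1* and *Pde3b* are taken up below.

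**Figure D3:**
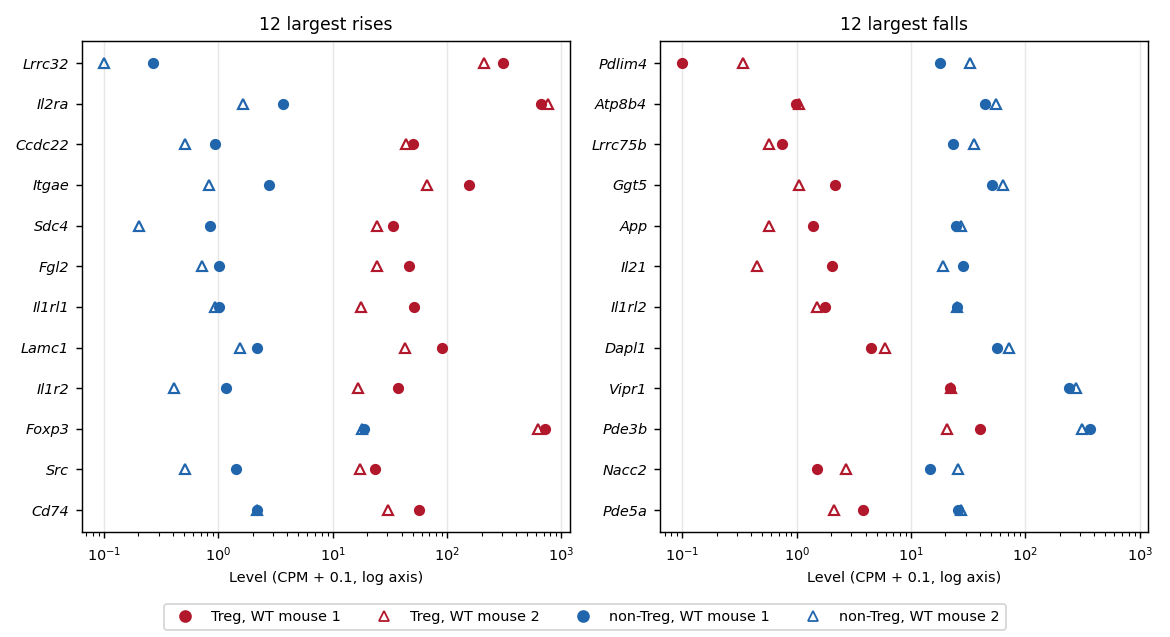
Level of the 12 genes with the largest fitted rise (left) and the largest fitted fall (right) in each WT library (CPM + 0.1 on a log axis), with Tregs in red, non-Tregs in blue, circles for mouse 1 and triangles for mouse 2. In all 24 genes both Treg libraries lie on the same side of both non-Treg libraries. The genes were chosen for passing with large folds of the same direction in both mice, so this follows largely from the choice. *Foxp3* and *Il2ra*, shown on the left, chose the cells.

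By absolute level rather than fold, the Treg gain was led by *Ikzf2*, the gene of the Ikaros-family factor Helios, at 1235 and 939 CPM against 72.5 and 55.1 CPM. *Il2rb* (827 and 1109 against 159 and 113 CPM) and *Smc4*, a condensin subunit (1564 and 1604 against 838 and 786 CPM), came next after the sort genes are set aside. *Smc4* and *Ift80*, the neighbouring gene for intraflagellar transport on chromosome 3, rose together, by 0.96 and 2.01. *Samhd1* (1504 and 1480 against 936 and 934 CPM) hydrolyses deoxynucleotides, and *Ahnak* (1334 and 781 against 645 and 385 CPM) encodes a giant scaffold protein. The greatest losses in level were *Tcf7*, the gene of the naive and memory T cell factor TCF-1 (973 and 853 against 2143 and 2045 CPM), *Igfbp4* (210 and 347 against 1090 and 1064 CPM) and *Il7r*. They were followed by *Macf1* (-0.31, FDR 0.0339), the cytoskeletal crosslinker gene *Flna* (-0.49), *Arl4c* (-1.30) and *Gramd1a* (-1.03). *Macf1* was at 3018 and 2285 against 3382 and 3128 CPM.

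The genes were then read in 36 lists of known function. The lists were drawn up with earlier results of these data known, so their counts describe the programme and are not independent evidence of its direction. Each is to be read against the 11.3% of all tested genes that rose and the 7.75% that fell.

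**Figure D4:**
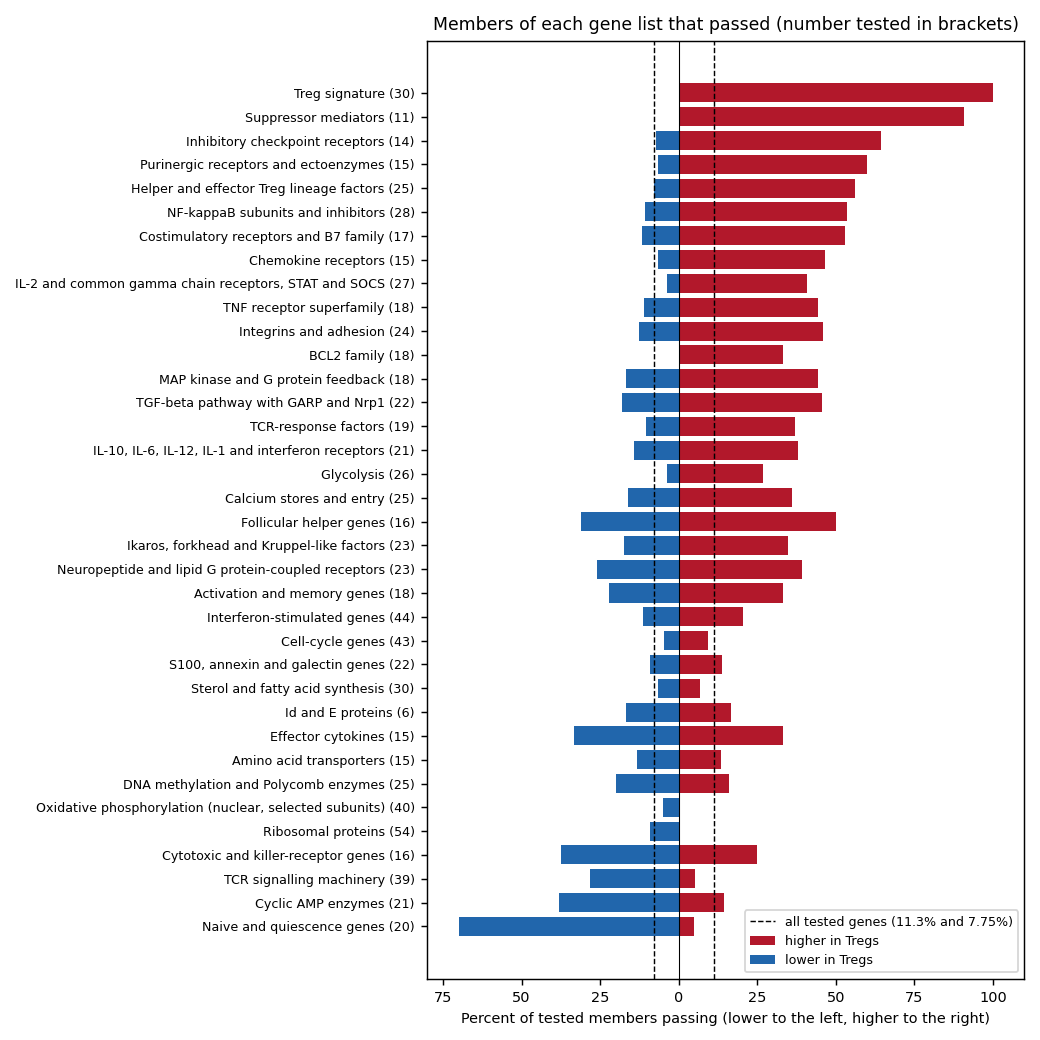
Percent of the tested members of each of 36 gene lists that rose (red, to the right) or fell (blue, to the left) in WT Tregs, with the number tested in brackets and dashed lines at the 11.3% and 7.75% of all tested genes. The Treg signature lies at the top, with 30 of 30 members higher, and the naive and quiescence genes at the bottom, with 14 of 20 lower.

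All 30 genes of the Treg signature rose, each by at least 2-fold, with a median log2 fold change of 3.12 against -0.02 over all genes. *Foxp3* and *Il2ra* are among them, and in the lists of IL-2 receptors and of forkhead factors, and the other 28 had a median of 3.08. Next to *Ikzf2*, the related factor gene *Ikzf4* (Eos) stood at 246 and 204 CPM against 16.3 and 12.2 CPM (3.98, SE 0.12, FDR 1.33e-08). *Swap70*, a Rac exchange factor gene (3.99), the dendritic and T cell surface gene *Cd83* (3.93), the actin-capping gene *Capg* (2.31) and *Penk*, which encodes the enkephalin precursor (3.90), rose as well. Of 11 tested suppressor mediators 10 rose (median 2.78). *Nt5e* (CD73), which makes adenosine from AMP, was the most abundant of them, at 540 and 366 CPM against 149 and 102 CPM. *Entpd1* (CD39), which acts before it, stood at 47.0 and 36.0 CPM against 8.45 and 3.71 CPM. *Ebi3*, a subunit of the inhibitory cytokine IL-35, rose by 3.89, *Areg*, a tissue-repair growth factor gene, by 3.999, and *Il10* by 2.20 (23.3 and 7.80 against 4.14 and 2.48 CPM). *Gzmb* passed at a low level (3.33 and 2.95 against 1.66 and 0.516 CPM, FDR 0.0253). *Lgals1* did not pass (-0.19, FDR 0.566).

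The IL-2 receptor chains and the genes that answer IL-2 were higher, while *Il7r* was lower. Of 27 genes for receptors of the common gamma chain, JAK, STAT and SOCS, 11 rose and 1 fell (median 0.27), and 3 and 4 fell without the Treg or the non-Treg library of mouse 2. *Il2rb*, the signalling beta chain, rose by 2.83 (SE 0.19, FDR 2.30e-06). The STAT5-induced inhibitors followed: *Cish* stood at 278 and 274 CPM against 36.3 and 28.7 CPM (3.09), *Socs2* rose by 3.91 and *Socs1* by 0.96. *Stat5a* rose by 0.65 and *Stat5b* by 0.31. *Il7r*, the IL-7 receptor that maintains resting T cells, stood at 299 and 410 CPM in Tregs and 904 and 1151 CPM in non-Tregs (-1.54, SE 0.08, FDR 3.30e-07). *Jak1*, the most abundant kinase of the list, did not pass (-0.16, FDR 0.191), nor did *Stat3* (0.02, FDR 0.902).

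Receptors of the TNF superfamily rose in 8 of 18 tested members and fell in 2 (median 0.30), or in 4 with either library of mouse 1 left out. *Tnfrsf9* (4-1BB) stood at 117 and 126 CPM against 9.36 and 8.77 CPM (3.74, SE 0.13, FDR 3.84e-08). *Tnfrsf4* (OX40) and *Tnfrsf18* (GITR), costimulators that lie next to each other on chromosome 4 (156013843 to 156016612 and 156026164 to 156028895), rose by 3.10 and 1.83. *Tnfrsf1b*, which encodes TNFR2, was the most abundant of the risers (479 and 304 against 101 and 81.8 CPM, 2.07), and *Tnfrsf8* (CD30) rose by 4.41. *Tnfrsf1a*, the gene of the other TNF receptor, fell by 0.57 (FDR 0.00234). The receptors for TNF thus moved in opposite directions.

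Of 14 inhibitory receptors 9 rose and 1 fell (median 1.03). *Ctla4* stood at 676 and 489 CPM against 97.2 and 48.0 CPM (3.06, SE 0.19, FDR 1.15e-06). *Tigit* stood at 158 and 60.1 CPM against 15.2 and 13 CPM, with the Treg library of mouse 1 well above that of mouse 2. *Pdcd1* (PD-1) rose by 1.21 and *Lag3*, at 115 and 39.9 against 39.8 and 22.3 CPM, by 1.23. For *Lag3* the Treg level of mouse 2 equalled the non-Treg level of mouse 1 closely, and only the comparison within each mouse separated them. *Lair1* fell by 1.84, and the abundant *Vsir* (-0.21, FDR 0.0992) and *Btla* (-0.12, FDR 0.414) did not pass. Among 17 costimulatory and B7 genes 9 rose and 2 fell (median 0.46), and 4 fell with either library of mouse 2 left out. *Icos* rose by 1.04, and the B7 genes *Cd86* (2.28), *Cd274* (PD-L1, 0.85), *Pdcd1lg2* (2.75) and *Cd80* (1.56) all rose. *Cd40lg*, through which helper T cells license B cells and dendritic cells, fell from 173 and 119.8 CPM to 41.3 and 27.3 CPM (-2.099, SE 0.11, FDR 3.98e-07). *Cd28*, *Ctla4* and *Icos* lie in this order on chromosome 1, between 60716800 and 61000320. *Cd28* did not pass (-0.07, FDR 0.652) between its paralogues that did.

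Of 22 TGF-beta pathway genes 10 rose and 4 fell (median 0.16), and 7 fell with either library of mouse 1 left out. Among the molecules that hold and activate the latent ligand, those that rose included *Lrrc32*, the integrin chain *Itgb8* (102 and 67.9 against 11.4 and 6.50 CPM, 3.25) and its partner *Itgav* (0.97). *Tgfb1* itself rose by 0.60 (256 and 204 against 153 and 149 CPM). Of the receptors, *Tgfbr1* rose by 1.53, *Tgfbr2* fell by 0.89 (453 and 402 against 826 and 757 CPM) and the coreceptor *Tgfbr3* fell by 2.07. *Nrp1*, a surface marker of thymic Tregs, rose by 2.64 (622 and 323 against 102 and 50.5 CPM). The inhibitory *Smad7* (-0.25, FDR 0.0748) and the shared *Smad4* (-0.12, FDR 0.369) did not pass.

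Of 39 genes of the TCR signalling machinery 11 fell, 2 rose and 26 did not pass, with a median of -0.07. With the 4 WT libraries alone 4 fell and 0 rose, 5 rose with either library of mouse 1 left out, and without the Treg or the non-Treg library of mouse 2, 9 and 8 rose, with 17 lower in the latter case. *Themis*, a TCR signal modulator, fell by 1.98 (56.4 and 84.6 against 289 and 259 CPM). *Cd4* fell by 0.45, *Cd247* (the zeta chain) by 0.50 and *Lat* by 0.40. *Dgka* fell by 0.50, and its antisense partner *Pmel* also fell (-0.74). *Ptprc*, the most abundant member, did not pass (-0.02, FDR 0.873). Of 28 NF-kappaB genes 15 rose and 3 fell (median 0.31), none by as much as 2-fold. They included the subunits *Rel* (0.86), *Nfkb2* (0.74) and *Nfkb1* (0.59) and the inhibitors *Nfkbia* (492 and 588 against 279 and 290 CPM, 0.92), *Nfkbiz* (0.90) and *Tnfaip3* (0.59), while *Rela* did not pass (0.08, FDR 0.584). Without the block for the mouse 9 of the 28 rose. Among 18 MAP kinase and G protein regulators 8 rose and 3 fell (median 0.38). *Dusp4* stood at 127 and 49.6 CPM against 9.94 and 2.79 CPM (3.82), *Rgs16* at 148 and 61.7 against 18.5 and 7.64 CPM (3.01), and *Dusp1* at 664 and 1061 against 329 and 367 CPM (1.27).

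Of 19 TCR-response factors 7 rose and 2 fell, with a median of 0.28 (3 rose without the block, and 11 when either library of mouse 1 was left out). *Irf4*, which drives effector Treg differentiation, stood at 131 and 75.7 CPM against 46.8 and 23.4 CPM (1.58), and *Egr2* rose by 1.43. *Nr4a2* stood at 76.0 and 14.8 CPM against 22.1 and 2.89 CPM (1.93), so that its level differed more between the mice than between the populations of mouse 1. *Junb*, the most abundant, did not pass (-0.09, FDR 0.688).

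Lineage factors were mostly higher: 14 of 25 rose and 2 fell, and the median was 0.86. *Bhlhe40*, a repressor linked to cytokine control, stood at 364 and 110 CPM against 61.5 and 12.5 CPM (2.80). *Ahr*, a ligand-activated factor, rose by 2.42, *Nfil3* by 2.21, *Maf* by 1.40, *Rora* by 1.26 and *Gata3* by 0.86. *Eomes* fell by 2.76 and *Runx3* by 0.87, both factors of cytotoxic cells. *Zbtb7b*, the CD4-lineage factor whose promoter drives *Thpok-cre*, did not pass (264 and 261 against 255 and 277 CPM, FDR 0.904). Within the Ikaros family *Ikzf2*, *Ikzf4* and *Ikzf3* (0.65) rose while *Ikzf1* fell from 955 and 1039.7 CPM to 554 and 597 CPM (-0.79). *Klf2*, which controls lymphoid homing, fell by 0.48 (FDR 0.0341), and *Foxo1* (0.02) and *Foxp1* (-0.09) did not pass. Of the inhibitors of E proteins, *Id2* fell by 1.41 and *Id3* rose by 0.77.

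The naive programme was the most reduced of the 36 lists: 14 of 20 genes fell and 1 rose, with a median of -0.81 (-0.91 in mouse 1, -0.65 in mouse 2). *Dapl1* stood at 4.35 and 5.79 CPM in Tregs and 56.7 and 71.4 CPM in non-Tregs (-3.66, SE 0.18, FDR 3.02e-07). *Lef1*, the partner of TCF-1, fell from 649 and 654 CPM to 190 and 226 CPM (-1.65), and the noncoding *Gm43352*, whose exons overlap it on the opposite strand, fell with it (-2.51). The lymph node homing receptor *Ccr7* fell by 0.82 and the egress receptor *S1pr1* by 0.87. *Ets1* and *Btg1* did not pass. *Id3* was the member that rose. Of 18 activation and memory genes 6 rose and 4 fell (median 0.06), *Cd44* among the risers (212 and 137 against 105 and 80.1 CPM, 0.90) and *Ly6a* among those that fell (-1.28). *Cd69* did not pass (0.12, FDR 0.609).

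Receptors for chemokines and molecules of adhesion guide T cells to their sites. Of 15 chemokine receptors 7 rose and 1 fell (median 0.39), and without the block 4 rose. *Ccr8*, at 32.9 and 22.0 against 2.40 and 1.14 CPM, rose by 3.94, *Ccr6* by 3.49, *Ccr4* by 2.26 and *Ccr2* by 2.20. *Cxcr4* (-0.03, FDR 0.862) and *Cxcr3* (-0.30, FDR 0.116) did not pass. *Ccr3* also rose and was low, with 20 reads in Tregs and 1 in non-Tregs. Of 24 integrin and adhesion genes 11 rose and 3 fell (median 0.46), with 1 lower with either library of mouse 1 left out and 6 with either of mouse 2 left out. Besides *Itgae*, *Itgb8* and *Sdc4* they included *Epcam* (4.10), *Alcam* (1.86), *Icam1* (0.85) and *Itgal* (0.43), and the beta chain *Itgb3* fell by 1.21 (87.0 and 99.9 against 195 and 239 CPM). *Itga4* and *Itgb7*, which form the gut-homing integrin, did not pass (0.04 and -0.06).

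Cytokine receptors of the IL-1 family moved in both directions within a single cluster on chromosome 1. The genes lie in the order *Il1r2*, *Il1r1*, *Il1rl2*, *Il1rl1*, *Il18r1* and *Il18rap*, from 40074079 to 40551705. *Il1r2*, a decoy that binds IL-1 without signalling, stood at 37.0 and 16.4 CPM against 1.08 and 0.310 CPM (5.22, SE 0.28, FDR 4.21e-07). *Il1rl1* (ST2), the IL-33 receptor of tissue Tregs, stood at 50.9 and 17.5 CPM against 0.911 and 0.826 CPM (5.30, SE 0.35, FDR 1.90e-06). *Il1rl2*, the IL-36 receptor that lies between them, went the opposite way, at 1.66 and 1.42 CPM against 24.9 and 25.1 CPM (-4.01, SE 0.23, FDR 6.25e-07). In all 3 genes the Treg and non-Treg libraries did not overlap. They were named for large folds of the same direction in both mice, so this follows largely from the choice. The other members of the cluster did not pass: *Il1r1* (0.20, FDR 0.907), *Il18r1* (0.03, FDR 0.933) and *Il18rap* (0.69, FDR 0.0936). Elsewhere *Il10ra* rose by 1.24, *Il12rb1* by 1.67 and both chains of the type I interferon receptor, *Ifnar1* and *Ifnar2*, by 0.43 and 0.35, while *Il6ra* fell by 0.50. In the whole list of IL-10, IL-6, IL-12, IL-1 and interferon receptors 8 of 21 rose and 3 fell (median 0.29).

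Adenosine and prostaglandin E2 both act on T cells through cyclic AMP. Of 15 purinergic genes 9 rose and 1 fell (median 0.47). *P2rx7*, an ATP-gated channel that makes T cells sensitive to extracellular ATP and NAD, was steady across mice, at 273 and 272 CPM against 65.8 and 61.8 CPM (2.09, SE 0.08, FDR 8.12e-08). The adenosine receptor *Adora2a* rose by 0.85 and adenosine kinase, *Adk*, fell by 0.70. The prostaglandin receptors *Ptger2* (2.44) and *Ptger4* (1.31) both rose. Of 21 cyclic AMP enzymes 8 fell and 3 rose (median -0.04). None rose with the 4 WT libraries alone, 1 rose without the block, and 7 and 6 rose without the Treg or the non-Treg library of mouse 2. *Pde3b*, the phosphodiesterase that FoxP3 is known to repress, stood at 40.1 and 20.6 CPM in Tregs and 364 and 311 CPM in non-Tregs (-3.53, SE 0.15, FDR 1.02e-07). *Pde7a* (-0.78) and *Pde4d* (-0.64) fell less, and so did the cyclases *Adcy6* (-1.25) and *Adcy7* (-0.64). *Prkar1a*, the most abundant subunit of protein kinase A, did not pass (0.19, FDR 0.0944). *Vipr1*, the receptor for vasoactive intestinal peptide, had the lowest p of all genes that fell, at 22.0 and 22.4 CPM against 239 and 276 CPM (-3.53, SE 0.10, FDR 1.27e-08). In its list of neuropeptide and lipid receptors 9 of 23 rose and 6 fell (median 0.03). Among them were *Gpr83* (137 and 207 against 14.5 and 24.9 CPM, 3.14), *Gpr55* (2.78), *S1pr4* (-0.55) and the follicle receptor *Gpr183* (-0.89).

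Of 15 effector cytokines 5 rose and 5 fell (median 0.12). *Il21*, the follicular helper cytokine, stood at 1.92 and 0.354 CPM in Tregs and 28.2 and 18.9 CPM in non-Tregs (-4.39, SE 0.30, FDR 2.14e-06). *Il2* had no read in either Treg library and 2.15 and 1.44 CPM in non-Tregs, which puts it at least 4.87-fold lower (floor of 3 counts per library). *Ifng* fell by 1.12 and *Fasl* by 1.28. The genes that rose were *Csf1* (44.7 and 31.3 against 9.11 and 5.37 CPM, 2.40), *Lif* (1.97), *Lta* (1.08), *Tnf* (0.71) and *Tnfsf11* (RANKL, 1.28). Without the block 3 of them rose. *Il4* had 2 to 11 reads a library and did not pass. Of 16 follicular helper genes 8 rose and 5 fell (median 0.40). *Izumo1r* (folate receptor 4) stood at 521 and 675 CPM against 224 and 205 CPM (1.47) and *Pou2af1* fell by 2.101, while *Bcl6*, their master factor, did not pass (0.28, FDR 0.139).

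Cytotoxic and killer-receptor genes fell more often than they rose, with 6 of 16 lower and 4 higher (median -0.57, -0.98 in mouse 1 and -0.14 in mouse 2). *Prf1* (perforin) stood at 9.85 and 8.98 CPM in Tregs and 53.3 and 52.7 CPM in non-Tregs (-2.49, SE 0.13, FDR 3.98e-07). *Klrd1* had 1 read in Tregs and 202 in non-Tregs, a ratio of 151 (exact 95% counting interval 26.8 to 6000), and *Gzmk* 1 read against 160. *Klrk1*, next to *Klrd1* on chromosome 6, had none in Tregs and was at least 5.37-fold lower. *Prf1* is also among the NK cell markers whose summed level is given above, and makes up much of that sum. The fall of that sum is therefore not a separate observation. Of the CD8 T cell markers, *Cd8a* had 8 and 4 reads in Tregs and 50 and 3 in non-Tregs and did not pass (FDR 0.0960). *Cd8b1* had 67 and 102 against 149 and 108 reads (FDR 0.624). Whether the non-Treg gate held NK, NKT or CD8 T cells was not tested. *Ccl5* varied between mice in non-Tregs, at 42.9 and 3.71 CPM. *Klrg1*, a receptor of terminally differentiated cells, went the other way (7.81 and 12.2 against 0.497 and 0 CPM, 5.07).

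Survival, interferon, calcium and chromatin genes were read next. Of 18 BCL2 family genes 6 rose and none fell, among them the survival genes *Bcl2* (0.71) and *Bcl2l1* (1.38) and the death gene *Pmaip1* (1.94), while *Mcl1* did not pass (0.17, FDR 0.179). Of 44 interferon-stimulated genes 9 rose and 5 fell (median 0.07), and 14 rose when either library of mouse 1 was left out, while 15 and 16 fell without the Treg or the non-Treg library of mouse 2. Guanylate-binding protein genes of chromosome 3, from 142493978 to 142638008, made up 3 of the 9: *Gbp3* (227 and 198 against 42.1 and 31.1 CPM, 2.55), *Gbp7* (1.07) and *Gbp2* (0.999) of the list rose, as did *Gbp5* (1.65) and *Gbp2b* (3.29) between them, chosen with their values in view. *Oas2* (-1.92), *Oasl2* (-0.64) and *Irf7* (-0.62) fell. Calcium genes rose in 9 of 25 members and fell in 4 (5 rose without the block, and 7 fell with either library of mouse 1 left out). *Ryr2*, a release channel of heart and brain, had 274 reads in Tregs and 3 in non-Tregs, a ratio of 122 (exact 95% counting interval 41.3 to 596). The entry pair *Orai2* and *Stim1* fell by 0.73 and 0.52, and *Stim2* rose by 0.53. Among enzymes of DNA methylation and Polycomb, with 4 of 25 higher and 5 lower (1 and 3 without the block), *Hdac9* rose by 2.93, *Dnmt3a* by 0.64 and *Tet2* by 0.43, while *Dnmt1* fell by 0.34 and *Tet1* by 0.56.

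Among 22 S100, annexin and galectin genes 3 rose and 2 fell (median -0.12), *Capg* and *Ahnak* up and *Anxa2* down (-0.75). Without the block 0 fell, with either library of mouse 1 left out, 5 rose and 1 fell, and without the Treg or the non-Treg library of mouse 2, 9 and 10 fell. Among metabolic lists glycolysis had the most calls. Of 26 glycolysis genes 7 rose and 1 fell (median 0.14, 3 lower with either library of mouse 2 left out), led by the transporter *Slc2a3* (174 and 158 against 68.4 and 57.7 CPM, 1.40), the regulator *Hif1a* (0.99) and *Hk2* (2.55), and *Ldha* (-0.33, FDR 0.0656) and *Pkm* (0.10, FDR 0.385) did not pass. Sterol and fatty acid synthesis (2 of 30 higher, 2 lower) and amino acid transporters (2 of 15 higher, 2 lower) had medians of -0.03, and without the block 1 and 0 rose, with 0 and 1 lower. Of 43 cell-cycle genes 4 rose and 2 fell (median 0.06). *Mki67* was at 46.8 and 14.8 CPM in Tregs and 25.5 and 12.7 CPM in non-Tregs (0.62, FDR 0.0355), so that the mice differed more than the populations of mouse 2. When the Treg library of mouse 1 was left out 1 of the 43 rose, and without the block 2. Without the Treg or the non-Treg library of mouse 2, 11 and 10 rose, and 8 rose by the likelihood ratio test.

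Ribosomal protein and oxidative phosphorylation genes differed between the mice. None of 54 ribosomal protein genes rose and 5 fell, with a median of -0.44, which combines -1.04 in mouse 1 and 0.13 in mouse 2. *Rps29*, for example, stood at 69.0 and 155 CPM in Tregs and 209.6 and 175 CPM in non-Tregs. The Treg library of mouse 1 alone lay below the rest. With either library of mouse 1 left out, 11 of the 54 rose and 1 fell, and with either library of mouse 2 left out, 53 fell. The 40 nuclear oxidative phosphorylation genes (0 higher, 2 lower) had medians of -0.59 in mouse 1 and 0.09 in mouse 2, and 29 and 30 fell without the Treg or the non-Treg library of mouse 2. No direction in Tregs is given for either list.

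The WT contrast was set beside the same contrast in KO mice, which uses none of the WT libraries. Of the 2634 genes, 2440 (92.6%) had the same sign in KO mice, where 68.3% of all tested genes did. In KO mice 1253 of the 2634 passed in the same direction, and 1650 of all 13796 tested genes passed in either direction. The difference between the contrasts passed the test in 149 genes (1.08%). Of these, 131 were among the 2634, which make up 19.1% of all tested genes. Both tests use the WT libraries, so part of this overlap follows from the design of the tests. For some core genes the difference did not pass: *Ikzf4* was at 3.98 in WT and 4.12 in KO mice (difference 0.14, SE 0.18, FDR 0.844) and *Tnfrsf9* at 3.74 and 3.87 (difference 0.13, FDR 0.884). The contrast was smaller in KO mice for *Ikzf2*, at 4.09 in WT and 2.75 in KO mice (difference -1.34, SE 0.15, FDR 0.00414), for *Lamc1* (5.24 and 2.62, FDR 0.00390) and for *Tiam1*, a Rac exchange factor gene (2.61 and 1.15, FDR 0.00283). *Pde3b* (-3.53 and -1.78) and *Dapl1* (-3.66 and -1.73) were less reduced. The difference was also negative for list members such as *Tox2* (1.18 and -1.06), *Gpr15* (3.17 and 0.52), *Ccr4* (2.26 and 0.28), *Maf* (1.40 and -0.12), *Cd44* (0.90 and -0.37), *Mki67* (0.62 and -1.18) and *Pdcd1* (1.21 and 0.08). This count depends on the pairing, since 0 genes passed without the block. In the test of the difference 1465 genes had an unadjusted p below 0.05, DESeq2 called 115 genes and edgeR's likelihood ratio test 342.

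**Figure D5:**
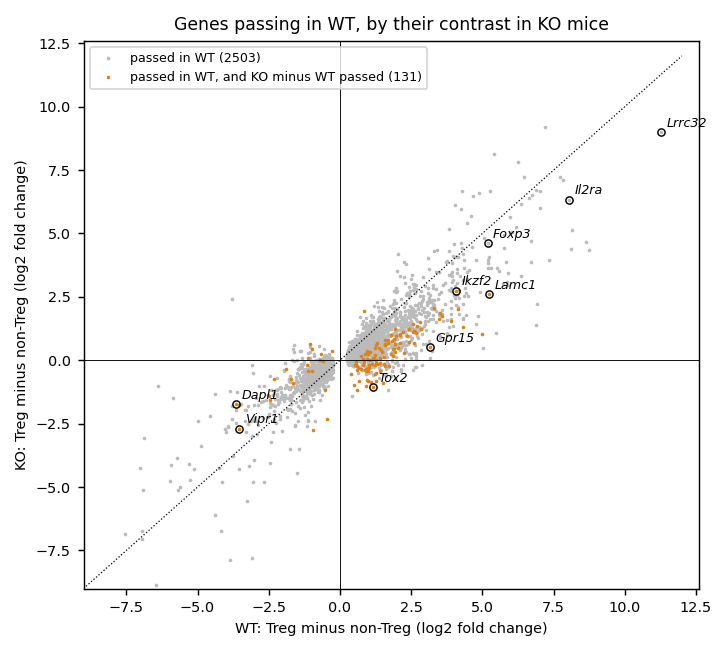
Log2 fold change between Tregs and non-Tregs in WT (horizontal axis) and KO mice (vertical axis) for the 2634 genes that passed in WT, with equal values on the dotted line and named genes circled. Genes whose KO minus WT difference also passed are orange (131). Genes chosen for passing in both tests lie off the line by that choice.

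The counts of genes that share exon sequence on opposite strands mostly changed in the same direction. Of the 2634 genes 1565 rose and 1069 fell, so many unrelated genes would also share a direction. There were 157 overlapping pairs among the 2634, and both partners changed in the same direction in 151. Examples are *Cish* (3.09) and *Gm17041* (2.99), *Ikzf2* and *Gm29114* (4.17), and *Lef1* and *Gm43352*. The library kit as named does not mark strand and the strand setting of the counting is not given, so reads of such partners cannot be told apart. Of the genes tested 10863 were protein-coding, and 1394 of them rose and 912 fell. Of 307 lincRNAs 20 rose and 30 fell.

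Promoter sequences were read for the genes that the RefSeq table (GRCm38.p6) holds, 9183 of those tested, in windows from 250 bases before to 50 bases after a start. To show what such a window looks like for genes at either end of the programme, the 250 bases before the start are given for the 2 genes of lowest p in each direction among the named genes with a single start in the table, leaving out the sort genes and *Ccdc22*. Capitals mark matches to any of 8 motifs on either strand: NFAT (GGAAA), forkhead (TGTTTAC), the STAT-binding GAS (TTCNNNGAA), NF-kappaB (GGANTTTCC), AP-1 (TGANTCA), RUNX (TGTGGT), TCF/LEF (CTTTGA) and an E-box (CAGGTG).
*Cish* (chr9:107296409-107296658, plus strand): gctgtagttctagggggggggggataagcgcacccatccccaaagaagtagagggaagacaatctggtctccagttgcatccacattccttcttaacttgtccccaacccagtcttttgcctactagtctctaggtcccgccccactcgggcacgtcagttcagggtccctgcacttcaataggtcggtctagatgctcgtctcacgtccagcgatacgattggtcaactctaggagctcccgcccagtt
*Il1r2* (chr1:40085843-40086092, plus strand): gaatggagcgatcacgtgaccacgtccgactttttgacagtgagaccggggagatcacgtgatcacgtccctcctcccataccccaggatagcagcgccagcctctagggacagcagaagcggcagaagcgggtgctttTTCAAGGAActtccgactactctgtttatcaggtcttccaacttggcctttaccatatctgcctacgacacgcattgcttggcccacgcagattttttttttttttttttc
*Vipr1* (chr9:121642466-121642715, plus strand): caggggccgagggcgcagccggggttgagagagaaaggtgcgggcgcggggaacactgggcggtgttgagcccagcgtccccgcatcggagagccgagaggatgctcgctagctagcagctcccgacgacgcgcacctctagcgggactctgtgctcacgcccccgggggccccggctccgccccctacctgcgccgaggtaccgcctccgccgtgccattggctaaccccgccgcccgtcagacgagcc
*Pdlim4* (chr11:54069018-54069267, minus strand): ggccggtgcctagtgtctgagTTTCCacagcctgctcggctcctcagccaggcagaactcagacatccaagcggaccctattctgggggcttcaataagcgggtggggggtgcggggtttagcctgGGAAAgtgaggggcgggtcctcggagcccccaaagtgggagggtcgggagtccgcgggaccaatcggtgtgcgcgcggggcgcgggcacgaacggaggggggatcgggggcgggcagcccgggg

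The window of *Il1r2*, which rose, held a GAS match 111 bases before the start (TTCAAGGAA), and that of *Pdlim4*, which fell, held NFAT matches 229 and 124 bases before it. *Cish* and *Vipr1* had no match in these letters, which says nothing about the factors. Over the 300-base windows, the GAS motif was in 7.66% of those of genes that rose (1462 windows), 6.52% of those of genes that fell (1027) and 6.93% of those of all genes tested, and AP-1 was in 6.98%, 5.26% and 4.91%. NF-kappaB was in 2.19%, 1.56% and 1.38%, and the forkhead motif in 3.21%, 2.73% and 2.54%. NFAT was in 56.4%, 57.4% and 59.1%, and TCF/LEF in 12%, 12.1% and 12.1%. RUNX was in 13.6%, 14.6% and 13%, and the E-box in 19.8%, 19.5% and 18.3%. Over all 32851 windows of the table, of any gene, these shares were 8.30% for GAS, 7.81% for AP-1, 1.25% for NF-kappaB, 3.65% for forkhead, 61.3% for NFAT, 16.0% for TCF/LEF, 16.8% for RUNX and 20.2% for the E-box. Median GC content was 60.7% for the windows of genes that rose, fell or were tested. For genes that rose or fell at least 2-fold, AP-1 was in 7.80% and 7.86% of windows and NF-kappaB in 2.19% and 2.86%. The GAS motif was in 8.76% and 5.71% of them, forkhead in 3.56% and 2.86%, and NFAT in 57.6% and 55.4%. For TCF/LEF the shares were 12.7% and 15.7%, for RUNX 14.4% and 14.6%, and for the E-box 22.8% and 22.5%. These shares are a description, and a match is not a binding site.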

How the data were processed

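Spleen CD4+ T cells were sorted by GFP and CD25, and RNA was sequenced as 50-base reads after library construction with an NEBNext Ultra kit. The submitters' processing notes name HISAT2 (version 2.1.0), HTSeq (version 0.11.1) and mm10. The deposited values are counts: whole reads per gene symbol (48321 symbols), not normalized, with tallies of unassigned reads kept apart and left out of library sizes and tests. Reads on genes were 26.0% to 28.5% of each library, which held 6094952 to 12410064 of them, and reads on no gene were 1.32 to 1.53 times as many. The annotation used by the authors, filters and the strand setting are not given in the sources used here.

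All 10 libraries were fitted in edgeR (version 4.0.16, R 4.3.3, limma 3.58.1) with a column for each of 4 mice and terms for WT FoxP3+CD25+, KO FoxP3+CD25+ and KO FoxP3+CD25- cells (3 residual degrees of freedom), after filterByExpr (minimum count 10) and TMM, by the bias-adjusted quasi-likelihood F-test, two-sided, at FDR 0.05. The pairing comes from the numbers in the labels, and the deviations of same-numbered WT libraries from their group means had a correlation of 0.30 over genes. The p-values measure the spread between these libraries only. Each SE was derived as the fold change divided by the square root of F. Per-mouse differences used log2 CPM with a prior count of 2. Steps were tested on simulated data.

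The comparison and the gene lists were chosen with earlier results of these data known. Genes were named by rule: the sort genes and *Satb1*, the 12 largest rises and falls with at least 20 CPM in the higher group, the 10 lowest p and the 10 largest CPM differences in each direction, the 6 lowest p of the KO minus WT difference, the 5 largest folds that did not pass, and of each list up to 10 members by p or, if not passing, by level. Neighbours in a locus were chosen with their values in view. The gene lists hold between 6 and 54 tested members. Positions are from GENCODE M21 (GRCm38), where 13346 of the 13796 tested symbols matched 1 gene.

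Alternatives were a fit without the block, the 4 WT libraries alone, RLE factors, library size alone, no filter, CPM above 1 in 2 libraries, DESeq2 (version 1.42.0), the likelihood ratio test, the legacy quasi-likelihood method, FDR 0.01, a 1.5-fold threshold (glmTreat), sex-linked genes left out and each WT library left out. Tables and figures used Python 3.11.15 with numpy 2.4.6, pandas 2.3.3, scipy 1.17.1 and matplotlib 3.10.9. Some members of the lists are counted with their list but not reported here by name.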

Additional observations from a re-analysis of the deposited data

Results flagged for a closer look

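For 15 of the genes named by the rule, the difference between FoxP3+CD25+ and FoxP3-CD25- cells was not the same in KO as in WT mice (edgeR's quasi-likelihood test of the difference, FDR below 0.05). Of all 13796 tested genes 1.08% passed this test. *Ahnak*, *Cd44*, *Cxcr3*, *Gpm6b*, *Rps15a-ps4* and *Tiam1* were named by their low p in this same test, so their passing follows from the naming. Most others were named by their WT contrast, which enters the difference. The KO minus WT difference in log2 fold change was negative for *Ahnak* (-1.36), *Cd44* (-1.27), *Cxcr3* (-1.81), *Dst* (-1.27), *Gpm6b* (-1.86), *Ikzf2* (-1.34), *Lamc1* (-2.62) and *Tiam1* (-1.46). It was positive for *Dapl1* (1.92), *Hid1* (0.91), *Pde3b* (1.75), *Prf1* (1.08), *Rps15a-ps4* (1.71), *Satb1* (0.57) and *Vipr1* (0.83). *Cxcr3* did not pass in WT mice (-0.30) and was at -2.11 in KO mice. *Satb1* is the gene targeted in the KO mice, and its contrast was -0.996 in WT and -0.42 in KO mice. The part of the deletion in this difference was not tested. *Rps15a-ps4* is a ribosomal protein pseudogene whose reads may be shared with its parent, at 46.5 and 12.5 CPM in Tregs against 104 and 23.4 CPM in non-Tregs. With the mouse left out of the model 0 genes passed this test. The 2 WT mice differed in sex, and the Treg library of WT mouse 1 held a low share of ribosomal protein reads (1.78%). The part of either in these differences was not tested.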

How the results depend on the processing

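Of the named or listed genes that passed, 344 were fitted again under each alternative (341 with the 4 WT libraries alone) and none of these changed sign. Over all 2634, 3 changed sign with either library of mouse 1 left out and 2 with either of mouse 2 left out. The ribosomal protein list turned from 0 higher and 5 lower to 11 and 1 with either library of mouse 1 left out. The number of genes called was 2634 with the pairing and 1504 with no replicate block (987 higher, 517 lower), and the KO minus WT difference went from 149 genes to 0. The 4 WT libraries alone gave 1500 (1035 higher, 465 lower), DESeq2 1592 (1038 and 554), FDR 0.01 1629 (567 lower) and 48 differences, and the 1.5-fold threshold 997 (725 and 272) and 17 differences. The likelihood ratio test gave 342 differences. Leaving out each WT library in turn, which reduces the contrast to 1 mouse with the spread of the KO mice, gave 2882 to 4498 genes, 1604 to 2434 higher, 1274 to 2293 lower and 385 to 1997 differences. The highest values came without the Treg or non-Treg library of mouse 2, and without the Treg library of mouse 1, 1988 of the 2634 passed again. The cause was not tested. RLE factors, library size alone, both other filters, the legacy method and leaving out sex-linked genes kept each count within 1.5 times. Without the block 98 of the 344 genes no longer passed, among them *Macf1* (FDR 0.443), *Hmha1*, *Gm8995*, *Rps15a-ps4* and *Gpm6b*, and under DESeq2 56, with *Macf1* and *Gpm6b*. A gene without a read was below 0.242 to 0.377 CPM, and lower levels were not detectable at this depth.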

Other observations

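Genes detected in a single population were looked for after their values were seen. *Ntn4*, the gene of a netrin, had 50 and 57 reads in the Treg libraries and none in the non-Treg libraries, which puts it at least 23.5-fold higher. *Hgf*, the hepatocyte growth factor gene, had 46 and 54 reads against none (at least 22.0-fold), and *Noxa1*, an activator of NADPH oxidase, 35 and 33 against none (at least 15.0-fold). Both mice gave nearly the same number of reads for each. In the opposite direction *Esm1*, an endothelial proteoglycan gene, had no read in Tregs and 38 and 7 in non-Tregs (at least 5.24-fold lower). The floor for these bounds is 3 counts per library.

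The 5 largest folds that did not pass, among genes of at least 20 CPM in the higher group, belonged to *Gm10800*, *Gm10801*, *Gm42418*, *Rn18s-rs5* and *Gm9844*. *Gm10800* stood at 243 and 16.5 CPM in Tregs and 123 and 247 CPM in non-Tregs, and *Gm10801* at 227 and 10.04 CPM against 84.6 and 217 CPM, so the Treg libraries of the mice lay far apart. *Gm9844* stood at 32.1 and 74.2 against 85.4 and 80.3 CPM, lowest in the Treg library of mouse 1.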
